A study of Homo sapiens with 12 samples.

Results

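U2 small nuclear RNA (U2 snRNA) is the RNA of the spliceosome that pairs with the branch site of introns, and 10 of its nucleotides were listed by the authors as 2'-O-methylated. These 10 sites were all the rows of U2 in the snRNA section of the deposited overview, which listed 20 more in the snRNAs U1, U4, U5 and U6 and 111 in ribosomal RNA. Methylation was measured by RiboMeth-seq, in which total RNA is partly hydrolysed with alkali and the ends of the fragments are counted at each position. A 2'-O-methyl group protects the bond that follows it, so few read ends fall at a methylated nucleotide. The RMS score is 1 minus the read ends at a position over the weighted mean of its neighbours, with 6 neighbours a side and a lower bound of 0. It is a fraction, near 1 where ends are depleted, and it is not a count of methylated molecules.

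All 12 libraries came from HEK293 Flp-In T-REx, a line derived from human embryonic kidney into which inducible transgenes can be placed at a set site. The 4 groups of 3 replicates were wild-type cells (WT), cells with a GPATCH4 knockout (GPATCH4 KO), wild-type cells transfected with siRNA that has no target (siNT), and wild-type cells transfected with siRNA to DHX15 (siDHX15). The number of clones behind the knockout line and the duration of the siRNA treatment were not given in the sources used here. The assay does not measure the GPATCH4 or DHX15 transcript, so neither depletion was checked.

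Most 2'-O-methyl groups of U2 are placed by fibrillarin in box C/D ribonucleoproteins, whose guide RNA pairs with the target. For snRNAs these guides are mostly small Cajal body RNAs (scaRNAs), named after the nuclear body where snRNPs mature. The nucleotides next to the cap are methylated by protein enzymes without a guide. DHX15 is a DEAH-box helicase that takes spliceosomes apart, while GPATCH4 belongs to the G-patch proteins, a family that binds and stimulates helicases of this kind. The comparisons addressed which sites depend on GPATCH4 and which on DHX15.

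The U2 sequence of the deposited tables, with the listed nucleotides in capitals, is shown first because each result below refers to a position in it.
U2: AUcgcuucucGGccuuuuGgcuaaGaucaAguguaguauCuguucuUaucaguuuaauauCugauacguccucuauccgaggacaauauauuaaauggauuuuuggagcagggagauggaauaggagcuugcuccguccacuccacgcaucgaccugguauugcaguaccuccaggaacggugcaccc
The table sequence has 188 nt, the length of RNU2-1 in RefSeq (GRCh38.p14, chr17:43233790-43233977). Reads from different copies of the U2 gene cannot be told apart. GUAGUA, the branch site recognition sequence, occurred once on this strand, at positions 33 to 38, between the listed sites at 30 and 40. AUUUUUG, the letters at which the Sm ring assembles, occurred once, at positions 99 to 105. The 10 sites lay in the first 61 nucleotides, upstream of those letters.

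The overview named SCARNA9 as the guide of Gm19 and Am30. SCARNA2 was named for Gm25, its cleavage product for Gm11, and both for Cm61. In RefSeq the former gene carries the synonym mgU2-19/30 (chr11:93721514-93721866) and the latter mgU2-25/61 (chr1:109100193-109100612), names that hold the positions of 4 of these sites. Gm12, Cm40 and Um47 had a question mark in place of a guide, and Am1 and Um2, next to the cap, had a dash. No other snRNA site of the overview shared a guide with U2. The windows around both SCARNA9 sites, around Um47 and around Cm61, to which the comparisons below return, had these sequences, with the site in capitals.
U2-Gm19: ccuuuuGgcuaag
U2-Am30: agaucaAguguag
U2-Um47: uguucuUaucagu
U2-Cm61: uaauauCugauac
Each window is the span over which the score is computed, so the window of Gm19 ends on the methylated Gm25, and Gm11 and Gm12 each lay in the window of the other.

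WT and knockout libraries held 7437847 to 16314082 read ends, of which 45156 to 120482 were in U2. The siRNA libraries held 875096 to 5111963, with 5274 to 39345 in U2. The weighted neighbour mean at a U2 site was 146 to 1722 read ends in WT and knockout libraries and 11.8 to 698 in siRNA libraries, so a site with a score near 1 rested on few ends in the latter. At Am1 and Um2 this mean was taken over downstream positions alone. No read 3' end fell on positions 1 to 18 of U2, which left only read 5' ends at Am1, Um2, Gm11 and Gm12. In the siRNA libraries Gm19 and Gm25 had no read 3' ends either. U2 took 47.6% ± 4.62 (SD, n = 3) of the snRNA read ends in WT and 49.9% ± 8.83 in the knockout (exact permutation test, two-sided, p = 0.8). The share was 43.9% ± 4.95 in siNT and 36.0% ± 3.53 in siDHX15, which did not overlap (p = 0.1, the smallest that exact permutation of 3 against 3 can give). Of the read ends of all RNAs in the tables, the U2 share was instead 0.0922 percentage points higher in siDHX15 (exact permutation test, p = 0.4). A share of read ends cannot tell fewer U2 molecules from more of the other RNAs.

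In wild-type cells 7 of the 10 sites had mean scores above 0.9 and the remaining 3 lay between 0.632 and 0.763. The cap-adjacent Am1 scored 0.994, 0.989 and 0.991 in WT replicates 1 to 3, and Um2 scored 0.969, 0.968 and 0.982. Gm25, a SCARNA2 site, gave 0.973, 0.967 and 0.957. These were the highest-scoring sites of the molecule. Gm11 gave 0.932, 0.952 and 0.935, and its neighbour Gm12 gave 0.891, 0.939 and 0.944. Am30, the nucleotide that METTL4 also methylates at the base, gave 0.934, 0.937 and 0.937. Um47 gave 0.930, 0.930 and 0.940. The ranges of neighbouring sites in the order Gm11, Am30, Um47, Gm12 overlapped, so these 4 were not separated. The lower sites each stood apart from the next, with Cm40 at 0.753, 0.820 and 0.715, Gm19 at 0.698, 0.705 and 0.694, and Cm61 at 0.580, 0.634 and 0.683. The sites of one guide were thus not at one level. SCARNA9 sites averaged 0.699 ± 0.00566 (Gm19) and 0.936 ± 0.00197 (Am30), and SCARNA2 sites 0.966 ± 0.00791 (Gm25) and 0.632 ± 0.0517 (Cm61; all SD, n = 3).

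**Figure D1:**
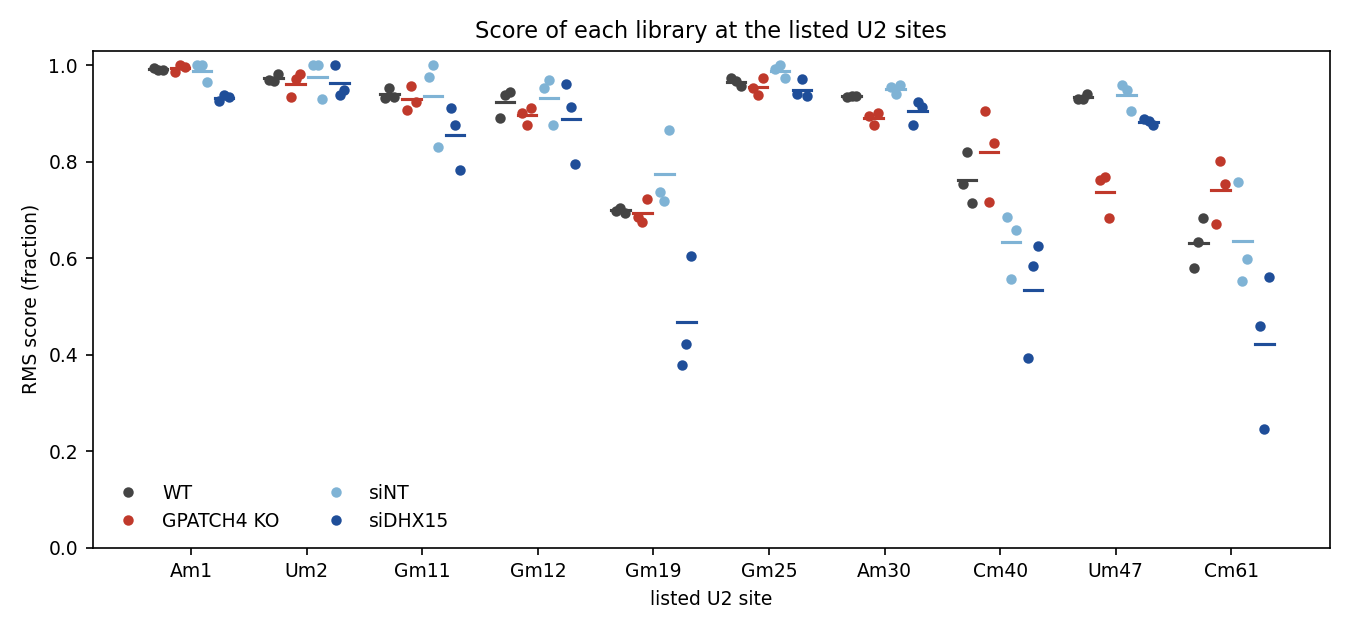
RMS score (fraction, y axis) at the 10 listed U2 sites (x axis) in each of the 12 libraries, with points for replicates and a bar for each group mean. The 3 knockout scores of Um47 lie at 0.683 to 0.768, below all WT scores, and the 3 siDHX15 scores of Gm19 lie at 0.379 to 0.605, below all siNT scores.

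The intermediate level of Cm40 depended on the kind of read end. In WT its score was 0.931 ± 0.00627 from read 5' ends and 0.283 ± 0.247 from read 3' ends (SD, n = 3), and 79.1% of the ends at this position were 3' ends. The gap was smaller in the knockout, with 0.926 from 5' ends and 0.581 from 3' ends, and least in its replicate 1, with 0.945 and 0.805. In siNT the means were 0.903 and 0.0810, and in siDHX15 0.828 and 0.130. From 5' ends alone Cm40 therefore scored about as high as Am30 and Um47 in WT, whereas Cm61 was low by both kinds of end, with 0.642 and 0.610. Um47 gave 0.934 by either kind in WT.

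**Figure D2:**
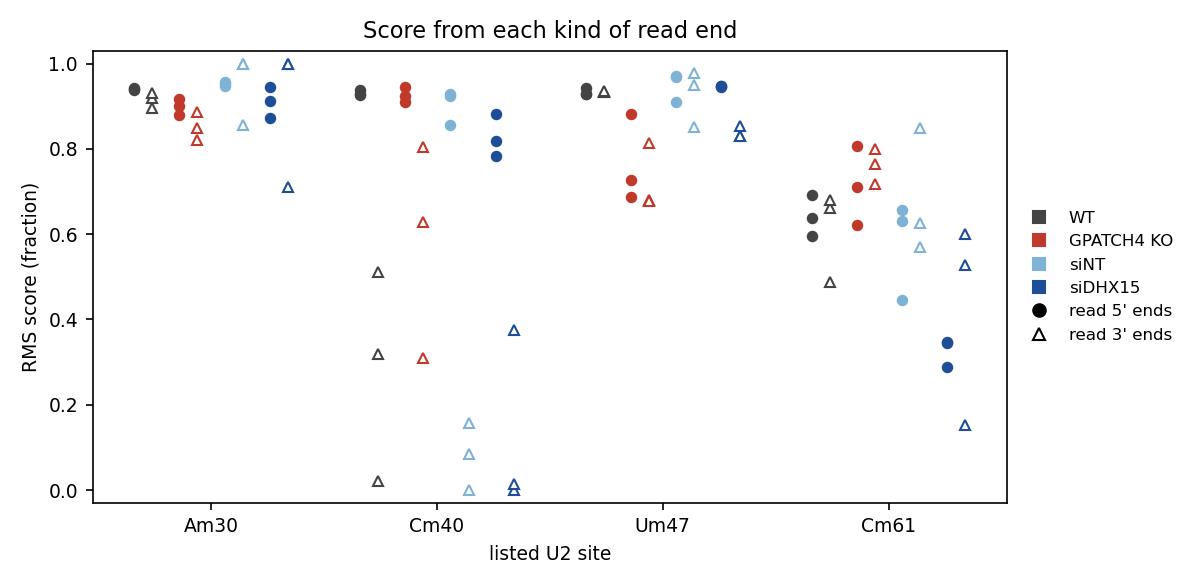
Score from read 5' ends (circles) and from read 3' ends (triangles), as a fraction on the y axis, for the 4 listed U2 sites measured by both kinds of end, in each library. The triangles of Cm40 lie below its circles in every library, while at Um47 in WT both kinds average 0.934.

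In the GPATCH4 knockout 1 U2 site was called lower, Um47, which has no assigned guide. Its scores were 0.761, 0.768 and 0.683 in the knockout against 0.930, 0.930 and 0.940 in WT, a difference of -0.196 (SE 0.0237, 95% interval -0.249 to -0.143; limma, Benjamini-Hochberg adjusted p = 9.28e-05). All 3 knockout libraries lay below all 3 WT libraries. Read ends at the site were 0.0663 of the neighbour mean in WT and 0.262 in the knockout, a 3.96-fold difference. The counts behind this were 79, 43 and 47 read ends at Um47 in WT and 273, 133 and 193 in the knockout, over neighbour means of 574 to 1144 in both. The score was lowered in part only, and the site still had fewer read ends than its neighbours in each knockout library.

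The change at Um47 was seen with both kinds of read end, at 0.765 ± 0.102 from 5' ends and 0.724 ± 0.0775 from 3' ends in the knockout (SD, n = 3). The nucleotides next to it, at positions 46 and 48, differed by less than the larger of the group SDs. Read ends over the neighbour mean were 0.785 ± 0.178 in WT and 0.713 ± 0.218 in the knockout at position 46, and 0.688 ± 0.0412 and 0.730 ± 0.0688 at position 48. At the far end of the window uguucuUaucagu they were lower in the knockout by more than the SDs, at 1.17 ± 0.180 and 0.817 ± 0.203 for position 52 and 0.945 ± 0.185 and 0.587 ± 0.177 for position 53. The call held in each of the 25 alternative settings tried, with adjusted p from 2.67e-05 to 0.0135. Several of these, such as unfloored scores or leaving out an siRNA library, could not change the difference itself. The 0.0135 came from the fit with the library index as a block. WT and knockout libraries shared no index, so that fit compared them only through the siRNA libraries.

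**Figure D3:**
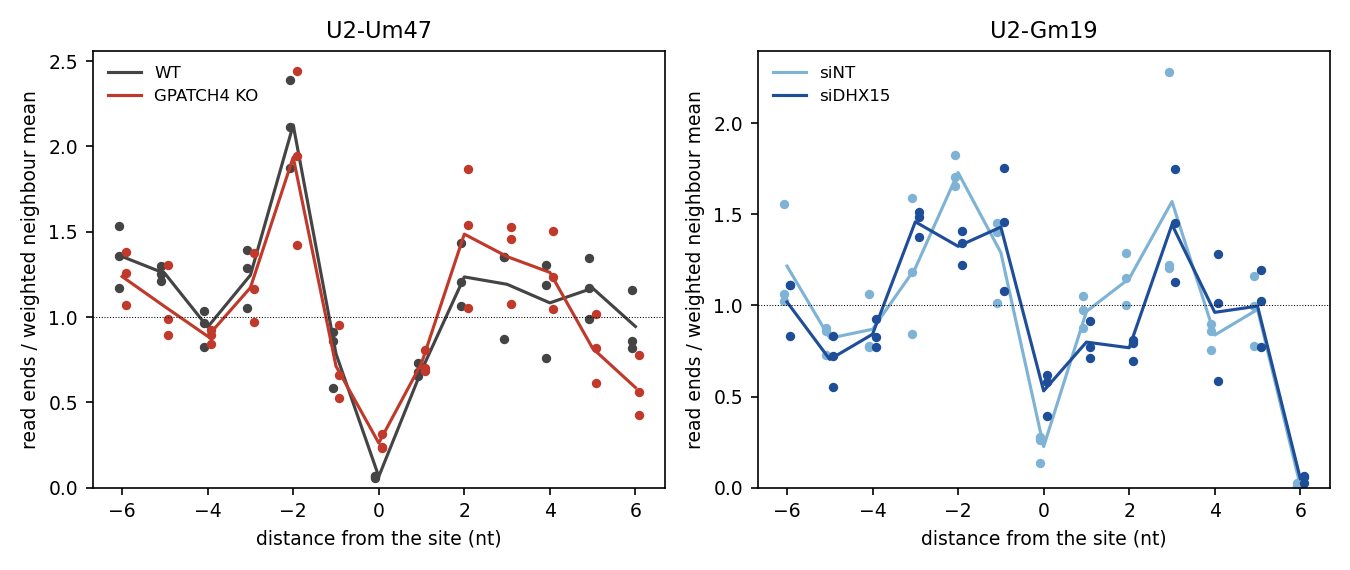
Read ends over the weighted neighbour mean (y axis) from 6 nt before to 6 nt after Um47 in WT and GPATCH4 KO (left) and Gm19 in siNT and siDHX15 (right), with points for replicates and lines for means. At distance 0 the mean rises from 0.0663 to 0.262 at Um47 and from 0.226 to 0.532 at Gm19. The low point 6 nt after Gm19 is the methylated Gm25.

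Losses were common among the other sites. Over the listed sites of all RNAs, 24.8% were called lower in the knockout and 0.709% higher, against 1 and 0 of the 10 U2 sites. By size the loss at Um47 ranked 29 among the 35 lower sites, so it was one of the smaller ones. The median difference was -0.0104 over the U2 sites and -0.00607 over all sites. The knockout scores lay entirely below WT at 2 U2 sites, Um47 and Am30, where 31.2% of all sites did so, and entirely above WT at none, where 7.09% of all sites did so.

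Neither SCARNA9 site passed the test in the knockout. Gm19 scored 0.685, 0.674 and 0.722 in the knockout, on both sides of the WT range, a difference of -0.00534 (95% interval -0.130 to 0.120). Am30 scored 0.896, 0.875 and 0.901, below all 3 WT values of 0.934 to 0.937. Its difference of -0.0454 (SE 0.0159, interval -0.0811 to -0.00967) missed the threshold (limma adjusted p = 0.0651). It passed with robust and trended variance, in edgeR (adjusted p = 0.0308) and without siDHX15 replicate 1 (limma adjusted p = 0.0234), and adjusted p ran from 0.0234 to 0.680 over its alternatives.

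None of the sites of SCARNA2 or its cleavage product passed the test in the knockout. Gm11 scored 0.907, 0.958 and 0.923 and Gm25 scored 0.954, 0.938 and 0.974, both overlapping WT. Cm61 scored 0.671, 0.801 and 0.754, the largest positive difference of the molecule at 0.110 (interval -0.0680 to 0.287, limma adjusted p = 0.423), with replicate 1 inside the WT range. Of the sites with no assigned guide, Gm12 scored 0.901, 0.877 and 0.912, within or just below WT. Cm40 spread over 0.905, 0.716 and 0.839 in the knockout, with a difference of 0.0573 (interval -0.0933 to 0.208) that was -0.00495 from read 5' ends and 0.298 from read 3' ends (limma adjusted p = 0.985 and 0.250). The cap-adjacent Am1 scored 0.986, 1 and 0.996, and Um2 scored 0.933, 0.971 and 0.981. Both overlapped WT, and the interval of the difference was -0.0289 to 0.0345 at Am1 and -0.0661 to 0.0441 at Um2.

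**Figure D4:**
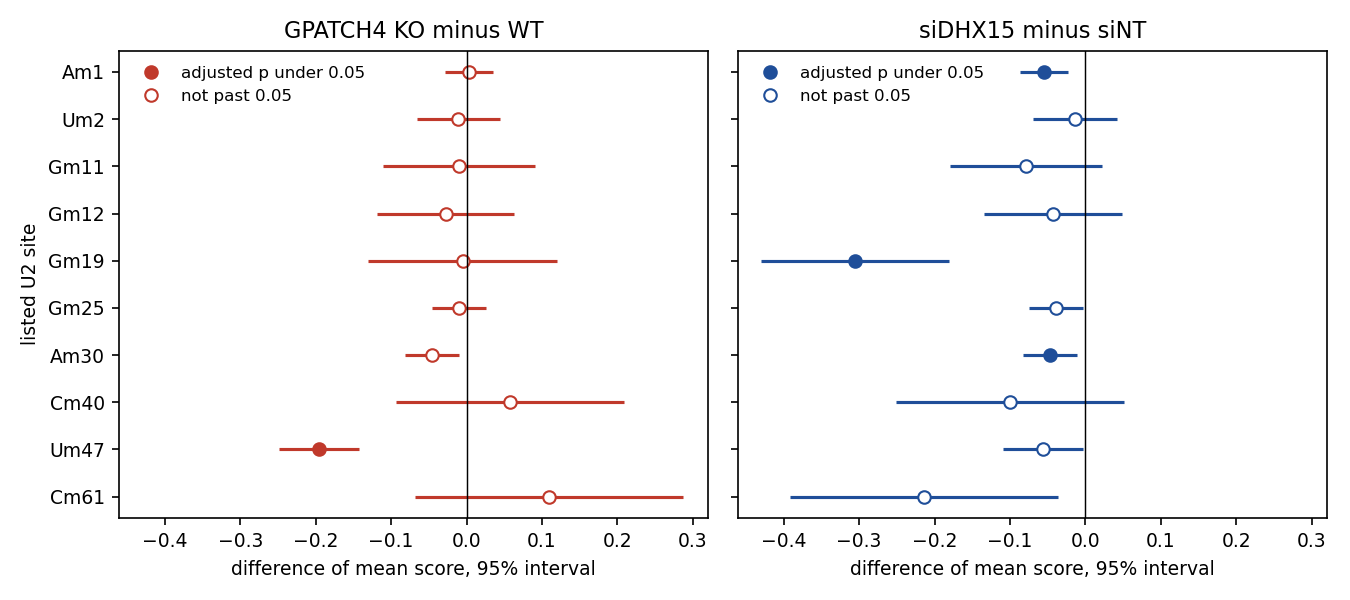
Difference of mean score (x axis, fraction) with its 95% interval for GPATCH4 KO minus WT (left) and siDHX15 minus siNT (right) at the 10 listed U2 sites, with filled points where the limma adjusted p was under 0.05. Um47 is the 1 filled point on the left, at -0.196, and Gm19, Am1 and Am30 are filled on the right, at -0.306, -0.0551 and -0.0472.

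After DHX15 knockdown 3 U2 sites were called lower than with non-target siRNA, a share close to the 31.2% of all listed sites called lower. Gm19 had the largest difference of the 3. Gm19 scored 0.379, 0.421 and 0.605 in siDHX15 against 0.737, 0.720 and 0.865 in siNT, a difference of -0.306 (SE 0.0557, interval -0.430 to -0.181; limma adjusted p = 0.00197). The groups did not overlap, and the same-numbered pairs differed by -0.359, -0.298 and -0.260. Relative to its neighbours the site had 0.226 of the read ends in siNT and 0.532 in siDHX15. Some of those neighbours were lower in siDHX15 by more than the group SDs, at 1.73 ± 0.0875 in siNT and 1.32 ± 0.0950 in siDHX15 for position 17, 0.967 ± 0.0899 and 0.799 ± 0.104 for position 20, and 1.15 ± 0.140 and 0.768 ± 0.0612 for position 21. The counts were small in these libraries, with 19, 15 and 7 read ends at Gm19 in siNT and 23, 31 and 84 in siDHX15. All of them were read 5' ends, so the score from read 5' ends alone repeats the same measurement. The change could not be tested from read 3' ends, unlike that at Um47. Depth was uneven within siDHX15, with 875096, 1462423 and 5111963 read ends in replicates 1 to 3, against 1705278 to 1796931 in siNT. Gm19 scored lowest in the shallowest siDHX15 library and highest in the deepest, and whether depth played a part was not tested. The call held in each of 24 alternatives, with adjusted p from 9.56e-05 to 0.0409, and by size it ranked 12 among the 44 lower sites of the set. Several of these alternatives, such as unfloored scores or leaving out a WT or knockout library, could not change the difference itself. The 0.0409 came from the fit with the library index as a block. It compared siNT and siDHX15, which shared no index, only through the WT and knockout libraries.

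Am30, the other SCARNA9 site, fell by 0.0472 (SE 0.0159, interval -0.0829 to -0.0115; limma adjusted p = 0.0476). It scored 0.876, 0.923 and 0.914 in siDHX15 and 0.955, 0.940 and 0.960 in siNT, with no overlap. The site had 7, 6 and 60 read ends in siDHX15 and 7, 5 and 4 in siNT. This call was at the edge of the threshold: it held in 7 of 25 alternatives. Of the 12 fits that left out 1 library, it held in those without GPATCH4 KO replicate 2 or siDHX15 replicate 2, and the adjusted p was 0.0547 to 0.128 in the other 10. With the replicate number as a block the limma adjusted p was 0.111, and with only the groups compared it was 0.141. With each library centred the difference was 0.0220.

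Am1 fell by 0.0551 (SE 0.0142; limma adjusted p = 0.0138), from 1, 1 and 0.965 in siNT to 0.926, 0.938 and 0.935 in siDHX15. The groups did not overlap, but the difference rested on 0, 0 and 1 read ends at the site in siNT and 1, 2 and 9 in siDHX15. A 95% Poisson interval from these counts alone, with a neighbour mean held fixed, was 0.897 to 1 in siNT replicate 1 and 0.528 to 0.998 in siDHX15 replicate 1. That neighbour mean was taken over downstream positions alone. Scores computed from it differed from the deposited scores by up to 0.025 at this site, so these intervals only approximate those of the scores above. Without siNT replicate 1 or 2 the call was lost (adjusted p = 0.0584 and 0.0545). Neither the fit with the replicate number as a block (limma adjusted p = 0.0539) nor edgeR (adjusted p = 0.0942) called it. With only the groups compared the limma adjusted p was 0.0798, and with each library centred the difference was 0.0140. Um2 scored 1, 0.938 and 0.949 in siDHX15 and 1, 1 and 0.929 in siNT, which overlapped.

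Scores in siDHX15 were lower across the whole set, so the U2 counts are read against that. No site was called higher (0% of all listed sites). The difference was negative at each of the 10 U2 sites and at 118 of all listed sites (23 were positive), with a median of -0.0554 in U2 and -0.0569 overall. The groups were fully separated at 5 U2 sites, where 44% of all sites were. When scores were first centred by library, on the median over all listed sites, Gm19 was the only U2 site still called (difference -0.236, limma adjusted p = 0.00859).

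The SCARNA2 sites lay lower in siDHX15 without passing the test. Cm61 scored 0.460, 0.247 and 0.561 in siDHX15 and 0.758, 0.553 and 0.599 in siNT. Its difference of -0.214 (SE 0.0792, interval -0.392 to -0.0364) was the next in size after that of Gm19, but siDHX15 replicate 3 lay inside the siNT range and the limma adjusted p was 0.0692. Without siDHX15 replicate 3 the adjusted p was 0.0231, and without siDHX15 replicate 2 the difference was -0.126. With the replicate number as a block the limma adjusted p was 0.0366, and from read 5' ends alone the difference was -0.251 (limma adjusted p = 0.00923). Gm11 scored 0.911, 0.875 and 0.783 in siDHX15 and 0.976, 1 and 0.830 in siNT, each lower than the same-numbered siNT library. Its difference of -0.0789 had a limma adjusted p of 0.226, against 0.0330 with the block and 0.0184 without siNT replicate 3. Gm25 scored 0.941, 0.971 and 0.936 against 0.992, 1 and 0.973, which did not overlap (difference -0.0388, limma adjusted p = 0.0954). It passed in 4 of 24 alternatives, namely on the logit scale (adjusted p = 0.0143), from read 5' ends alone (0.0489), with robust and trended variance (0.0280) and in edgeR (0.0311), and with each library centred the difference was 0.0303.

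Of the sites with no assigned guide, none passed in the knockdown. Um47, lowered in the knockout, scored 0.888, 0.883 and 0.875 in siDHX15 and 0.959, 0.949 and 0.906 in siNT. The groups did not overlap, and the difference was -0.0558 (interval -0.109 to -0.00268, limma adjusted p = 0.103). By kind of end it was -0.0881 from read 3' ends and -0.00205 from read 5' ends. It passed on the logit scale (limma adjusted p = 0.0353) and without GPATCH4 KO replicate 3 (0.0310), and with each library centred the difference was 0.0134. Cm40 scored 0.394, 0.583 and 0.625 against 0.687, 0.558 and 0.658, and Gm12 scored 0.960, 0.914 and 0.795 against 0.954, 0.969 and 0.875. Both overlapped.

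Whether a site responded differently to the knockout and the knockdown was tested as the first effect minus the second, and 4 of 10 U2 sites passed, 1 lower and 3 higher. Of all listed sites 17% were called lower and 20.6% higher in this contrast. At Um47 that difference of effects was -0.140 (SE 0.0335, limma adjusted p = 0.00816), since the score fell by 0.196 in the knockout and was 0.0558 lower in the knockdown. It did not pass on the logit scale (limma adjusted p = 0.111), from read 5' ends alone (0.0502) or from read 3' ends alone (0.186). At Gm19 the difference of effects was 0.30 (SE 0.0788, limma adjusted p = 0.0130), from -0.00534 in the knockout and -0.306 in the knockdown. With the library index as a block its limma adjusted p was 0.0523. Cm61 differed by 0.324 (SE 0.112, limma adjusted p = 0.0456), and Am1 by 0.0579 (SE 0.0200, adjusted p = 0.0456). Both were at the edge of the threshold. The effects of Cm61 had opposite signs here, at 0.110 in the knockout and -0.214 in the knockdown. Neither effect passed by itself (limma adjusted p = 0.423 and 0.0692). With the library index as a block the knockout difference was -0.118 and the knockdown difference -0.302, which differed by 0.184 (limma adjusted p = 0.0725). No index was shared by WT and knockout libraries, or by siNT and siDHX15 libraries. That fit therefore reached each of the separate effects only through the other experiment, and their signs in it are not direct comparisons. Of the 12 fits that left out 1 library, Cm61 passed without GPATCH4 KO replicate 1, siNT replicate 2 or siDHX15 replicate 3 and otherwise had a limma adjusted p of up to 0.103, while Am1 passed without siNT replicate 3 and otherwise had one of up to 0.115. With the replicate block the adjusted p of Am1 was 0.110. At Am30 the difference of effects was 0.00183 (interval -0.0487 to 0.0523). Its sign turned in 6 of 25 alternatives, and with each library centred the effects were -0.0167 and 0.0220. The knockout and knockdown were separate experiments at different depths, and edgeR, which tests the ratio of effects rather than their difference, called none of the 10 (3 at an unadjusted p under 0.05).

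No difference at U2 was called between the control groups of the experiments, both wild-type cells, which does not show that they were equal. The interval at Cm61, for example, ran from -0.173 to 0.182. In siNT minus WT limma called none of the 10 sites and 0% of all sites in either direction, with none of the 10 and 10 of all sites past an unadjusted p of 0.05. In edgeR 0 of the 10 were called and 1 passed unadjusted. Cm40 was furthest apart, lower in siNT by 0.129 (interval -0.280 to 0.0218) with no overlap, the 1 U2 site where siNT lay entirely below WT (4.26% of all sites). Gm19 lay higher in siNT by 0.0748 (interval -0.0501 to 0.200) and was 1 of 3 U2 sites, with Gm25 and Am30, where siNT lay entirely above WT (17.7% of all sites).

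Outside the listed sites few U2 positions had high scores. Of 168 unlisted positions more than 6 nt from either end, the median of the mean scores was 0.123 and 4 had a mean of 0.5 or more. Only G131 reached 0.5 in all 12 libraries, as 5 of the listed sites scored from both sides did. It scored 0.70, 0.761 and 0.870 in WT and 0.828, 0.514 and 0.788 in the knockout. In siNT it scored 0.871, 0.855 and 0.760, and in siDHX15 0.685, 0.717 and 0.90, so the groups overlapped. It had 52 read 5' ends and 19 read 3' ends in WT in all, and depletion of ends alone does not show a methyl group.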

How the data were processed

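The members and all choices below were made with earlier results of these data known. Total RNA fragments of 20 to 40 nt were sequenced, per the labels' protocols. Bowtie2 2.3.4.1, cutadapt 2.0 and hg38 are listed, without roles, in the submitters' processing notes. The authors deposited, per the file headers, counts of read 5' and 3' ends at each position of each library and the score as a fraction. The score formula gave the deposited fraction at 176 U2 positions in all 12 libraries (tolerance 1e-09). At positions 1 and 2, which lack upstream neighbours, the authors' recalculated fraction was used. How it was computed was not stated. A score from downstream neighbours differed from it by up to 0.025 at position 1 and by 0 at position 2. The authors' overview gives group means, equal to those here.

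Every listed U2 site is named with each library's value, grouped by guide. Unlisted positions are named where all libraries score 0.5 or more. Scores were fitted with limma 3.58.1 (R 4.3.3), as 4 group means over 12 libraries and 141 sites, two-sided, Benjamini-Hochberg at 0.05. On simulated counts for GPATCH4 KO minus WT it recovered 11 of 15 losses of 0.15 and 14 of 15 of 0.3 among 141 sites, and for siDHX15 minus siNT 12 and 15. On the same counts edgeR recovered 13 and 15 in the former and 7 and 13 in the latter. All simulated libraries had 1 dispersion and no loss was below 0.15, so smaller differences, as at Am1 and Am30, were not covered. Shares were compared with exact permutation (scipy 1.17.1). Alternatives were centred, logit and unfloored scores, each kind of read end, 2 neighbours, downstream neighbours at positions 1 and 2, a neighbour mean of 20, the groups compared alone, robust and trended variance, edgeR 4.0.16, replicate and library-index blocks, and leaving out each library. Titles call the replicates biological, and nothing says that the cultures were separate, so p-values measure the spread between these libraries. That spread was pooled over the 4 groups at each site, although the groups could differ in it. At Gm19 the SD was 0.00566 in WT and 0.12 in siDHX15. At such sites the knockdown interval borrows the smaller WT spread, and the knockout interval the larger siRNA spread. Deviations of same-numbered siNT and siDHX15 libraries correlated across sites at r 0.117, 0.160 and 0.166, and those of differently numbered ones at -0.301 to 0.150. These ranges overlap, so pairing by number was not established, and blocked values stand beside calls that changed. For WT and knockout libraries r was 0.120, 0.0459 and -0.000863 at the same number and -0.197 to 0.120 otherwise. Replicates differed beyond counting error over U2 positions (chi-square over degrees of freedom from 2.11 to 55.8). Reads carry no molecular identifiers, so Poisson intervals cover counting error only.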

Additional observations from a re-analysis of the deposited data

Results flagged for a closer look

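The knockout and knockdown effects differed at 4 U2 sites by the limma test of the difference itself (knockout effect minus knockdown effect). Of all listed sites 17% were called lower and 20.6% higher by this test, so 4 of 10 is close to the share over the whole set. At Um47 the value was -0.140 (adjusted p = 0.00816) and at Gm19 it was 0.30 (adjusted p = 0.0130). Over their alternatives the first passed in 21 of 25 and the second in 22 of 24. At Cm61 it was 0.324 and at Am1 it was 0.0579 (limma adjusted p = 0.0456 for each), and these passed in 11 of 25 and 8 of 23. At Am1 the siNT group held 1 read end in all and the siDHX15 group 12. The experiments also differed in depth, whose part in these differences was not tested.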

How the results depend on the processing

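The calls at Um47 in the knockout and at Gm19 in the knockdown held in each alternative that could be run for them (25 and 24). Several of these could not change the difference itself, the library-index block was not a direct comparison, and Gm19 could not be tested from read 3' ends. The count for the knockout was 1 site, and 2 with robust and trended variance and in edgeR, where Am30 was added, and it was 1 to 2 when 1 library was left out. The count for the knockdown was 3, and 1 with centred libraries, 5 on the logit scale, 0 of 4 testable sites from read 3' ends alone (0 unadjusted), 1 with only the groups compared and 1 to 3 when 1 library was left out. The sites changed in other settings too. Those called were Gm19 and Gm25 in edgeR, Am1, Gm19 and Cm61 with 2 neighbours a side, and Gm19 and Cm61 with the library index as a block. From read 5' ends alone they were Am1, Gm19, Gm25 and Cm61, and robust and trended variance added Gm25. With a neighbour mean of at least 20 Am1 was not tested, and Gm19 and Am30 were called. The count for the difference of effects was 4, and 2 with centred libraries, 2 on the logit scale, 0 from read 3' ends alone (1 unadjusted), 0 in edgeR (3 unadjusted), 1 with the library index as a block and 2 to 3 when 1 library was left out. Centring turned the knockdown differences of Am1 to 0.0140 and Am30 to 0.0220. With the replicate block the knockdown calls were Gm11, Gm19 and Cm61, Um47 remained called in the knockout with adjusted p = 0.00190 (limma), Am1 left the difference of effects, and no other call at a U2 site changed. The U2 share of snRNA read ends in the knockout minus WT ran from -2.82 to 5.12 percentage points when 1 library was left out, reversed without GPATCH4 KO replicate 3, and that of siDHX15 minus siNT reversed to 0.0922 over all read ends. The cause of these changes was not tested, except that the test from read 3' ends holds fewer sites by construction. For siNT minus WT no alternative called a U2 site. Low counts limit the siRNA libraries, where a site with a score near 1 had from 0 to 60 read ends.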
